A study of Mus musculus with 9 samples.

Results

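The genes of cholesterol and fatty acid synthesis were examined in adipose-derived stem cells (ASCs) of 3 adipose depots of the mouse. They were 32 genes chosen by name from the 54532 rows of the deposited count table. Of these, 18 form the sterol branch, 8 the fatty acid branch and 6 regulate both branches or carry sterols. The sterol branch was read as a mevalonate arm of 8 genes, from acetyl-CoA to squalene, and a sterol arm of 10 genes, from squalene to cholesterol. The ASCs of C57BL/6 mice came from fat under the skin (subcutaneous, Sub-ASC), in the abdomen (abdominal, Ab-ASC) and around blood vessels (perivascular, PVASC), and each group had 3 libraries of bulk RNA. All groups were cultures in the same medium with serum, leukemia inhibitory factor and FGF, and the labels name no added allele or drug for any group. The authors give passages 3 to 6 for the sequenced cells, with no passage for each depot. The age of the mice and the number of mice behind each culture were not given in the sources used here, so the p-values measure the spread between these libraries, which may be technical.

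Levels are given as CPM, the read count of a gene scaled to a common library size by TMM, and differences as log2 fold changes with their standard error. A gene was called when the quasi-likelihood test of edgeR gave an adjusted p below 0.05, by Benjamini-Hochberg over the 16526 genes with enough reads. All 32 genes had enough reads, and all 32 differed among the 3 groups, as did 84.6% of the tested genes.

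Cholesterol is built from acetyl-CoA through mevalonate, isoprenoid phosphates, squalene and lanosterol, and the same isoprenoids feed ubiquinone, dolichol and protein prenylation. Fatty acids are built from acetyl-CoA that ATP citrate lyase makes from citrate, and are then elongated and desaturated. Both branches are controlled by SREBPs, membrane-bound transcription factors that SCAP escorts from the endoplasmic reticulum to the Golgi for cleavage when sterols are scarce, while INSIG proteins hold SCAP back when sterols are plentiful. SREBP2, encoded by Srebf2, acts mainly on sterol genes and SREBP1, encoded by Srebf1, mainly on fatty acid genes, at sterol regulatory elements that often lie near CCAAT boxes and GC boxes bound by NF-Y and Sp1. Liver X receptors (LXRs), which sense oxysterols, drive sterol efflux and also raise Srebf1. Adipocytes are a major site of lipid synthesis, and ASCs are their cultured precursors.

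The libraries held 20524173 to 29881036 reads, and 3 reads, taken as the floor, stood for 0.0917 to 0.161 CPM. Ab-ASCs varied more between libraries than the others, with a biological coefficient of variation of 12.3% against 5.69% in Sub-ASCs and 3.86% in PVASCs. Ab-ASC replicate 1 stood apart, with a limma quality weight of 0.154 where the other libraries had 0.458 to 6.67. Surface markers by which ASCs are known were present, although Ly6a (Sca1) ranged widely, at 2138, 1919 and 2090.0 CPM in Sub-ASCs, 25.7, 19.8 and 19.8 in Ab-ASCs and 107, 116 and 110.4 in PVASCs. Thy1 (CD90) ranged from 211 to 905 CPM and Eng (CD105) from 104 to 340.1 CPM over the 9 libraries. Of 10 adipocyte markers, Lep had 0 reads in every library, Adipoq did not exceed 0.839 CPM and Cidec did not exceed 0.237 CPM. Retn (0.0429 to 0.191 CPM) and Cfd (1.07 to 1.45 CPM) were also low in Sub-ASCs, while 4 others were plentiful there, with Lpl at 3714 to 3997 CPM, Fabp4 at 123 to 137, Cd36 at 85.0 to 95.5 and Pparg at 39.9 to 44.2.

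The promoters that show the sequence features of the 2 branches are printed here, from RefSeq on GRCm38.p6. Of the 32 genes, 25 had a promoter entry, and the 250 bases before the start were searched on both strands for the sterol regulatory element TCACCCCAC, the CCAAT box CCAAT and the GC box GGGCGG. The first gene below is the only one of the 25 with an exact sterol regulatory element. The next 3 hold 1 mismatch to it, and Fasn is the only one of the 5 fatty acid genes searched with a CCAAT box. These 4 were chosen after the matches had been seen. Only the longest run free of annotated exons is shown, the sequence runs toward the start, and capitals mark sterol regulatory elements with at most 1 mismatch and CCAAT boxes, which read ATTGG on the other strand.
Hmgcs1, chr13:119690101-119690350, plus strand: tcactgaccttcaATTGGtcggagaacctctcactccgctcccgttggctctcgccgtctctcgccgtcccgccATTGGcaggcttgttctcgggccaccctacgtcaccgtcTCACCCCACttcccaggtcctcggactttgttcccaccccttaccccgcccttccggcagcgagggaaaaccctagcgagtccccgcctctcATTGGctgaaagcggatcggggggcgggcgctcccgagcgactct
Srebf2, chr15:82147019-82147180, plus strand: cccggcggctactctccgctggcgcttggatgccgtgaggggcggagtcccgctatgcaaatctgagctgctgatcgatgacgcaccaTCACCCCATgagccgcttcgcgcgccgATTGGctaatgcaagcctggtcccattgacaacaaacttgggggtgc
Hsd17b7, chr1:169969242-169969408, minus strand: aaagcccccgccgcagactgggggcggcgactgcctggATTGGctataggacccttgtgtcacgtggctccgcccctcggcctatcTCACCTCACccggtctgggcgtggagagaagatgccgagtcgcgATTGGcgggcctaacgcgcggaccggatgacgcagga
Acat2, chr17:12960748-12960975, minus strand: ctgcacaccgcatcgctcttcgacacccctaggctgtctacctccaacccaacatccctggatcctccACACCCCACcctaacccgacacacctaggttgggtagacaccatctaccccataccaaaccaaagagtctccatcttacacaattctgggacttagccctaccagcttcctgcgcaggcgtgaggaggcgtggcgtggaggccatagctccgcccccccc
Fasn, chr11:120824548-120824797, minus strand: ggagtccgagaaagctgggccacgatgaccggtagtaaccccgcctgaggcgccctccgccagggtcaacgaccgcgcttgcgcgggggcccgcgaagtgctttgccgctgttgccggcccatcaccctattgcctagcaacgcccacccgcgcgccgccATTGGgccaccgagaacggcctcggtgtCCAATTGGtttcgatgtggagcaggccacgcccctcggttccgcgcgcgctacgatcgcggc

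The sterol regulatory element of Hmgcs1 began at -137 from the start, between CCAAT boxes at -176 and -45. In Srebf2 the element lay at -162 and the CCAAT box at -135, and in Hsd17b7 the element at -117 lay between CCAAT boxes at -165 and -73. Acat2 had an element at -182 and no CCAAT box. In Fasn, CCAAT boxes on opposite strands at -62 and -59 overlapped, and a further one lay at -90. The SREBP elements known in promoters of these genes can differ from the letters searched, and no match says only that these letters are not in this window.

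CCAAT boxes were found in 14 of 15 sterol genes (93.3%), 4 of 5 regulators (80.0%) and 1 of 5 fatty acid genes (20%), against 39.8% of the 11426 tested genes with a promoter entry and 37.5% of all 27018 genes with one. The only sterol gene without a CCAAT box in its window was Acat2. GC boxes were found in 14 of 15 sterol genes, 5 of 5 regulators and 2 of 5 fatty acid genes (Acly and Fads2), against 61.9% of tested genes. An exact sterol regulatory element was found in 1 of 25 genes (4.0%), against 0.656% of tested genes. With 1 mismatch allowed it was found in 5 of 25 (20%), namely Hmgcs1, Acat2, Nsdhl, Hsd17b7 and Srebf2, against 11% of tested genes. The match of Nsdhl lies outside the longest run of its window that is free of annotated exons, so it is not among the promoters printed. These shares describe letters in fixed windows and were not tested.

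**Figure D1:**
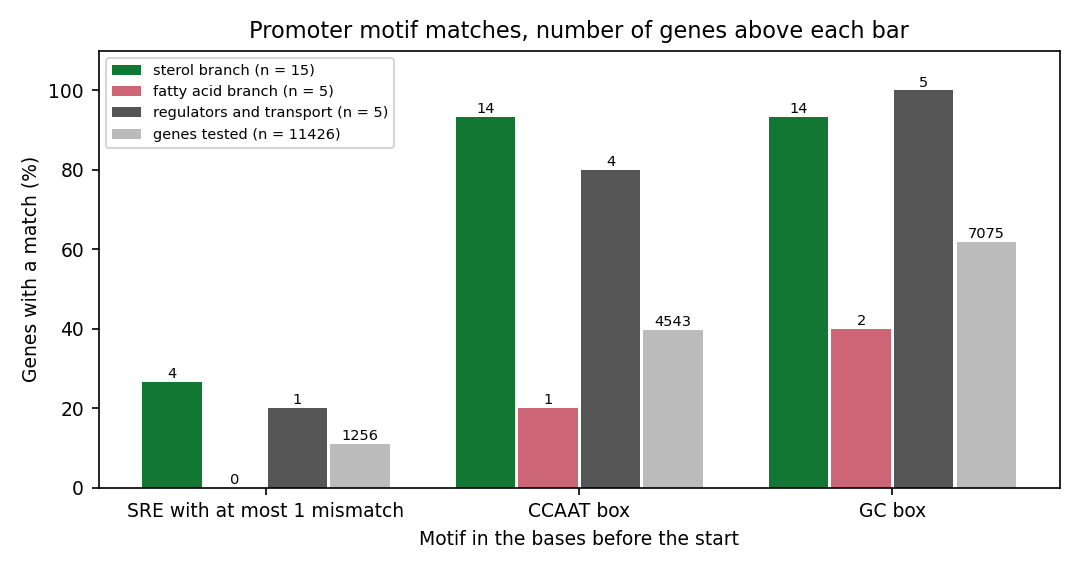
Share of genes (%) with at least 1 match to each motif in the 250 bases before the start, for the sterol branch, the fatty acid branch, the regulators and all tested genes with a promoter entry, with the number of genes above each bar. The CCAAT box was in 14 of 15 sterol genes and 1 of 5 fatty acid genes, against 39.8% of tested genes.

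All 32 genes were lower in PVASCs than in Sub-ASCs, and in each of them the libraries of the groups did not overlap, where 39.0% of all tested genes were lower without overlap. Over all tested genes, 35.7% were called lower and 34.7% higher in PVASCs in this comparison and 70.4% were called in either direction. The median log2 fold change was -1.40 over the 32 genes and -0.01 over all tested genes. Against the same Sub-ASC libraries, 31 of the genes were lower in Ab-ASCs and 1, Scap, was higher, where 38.3% of all tested genes were called lower and 37.0% higher. The libraries of these groups did not overlap for any of the 32 genes, where 39.1% of all tested genes were lower and 37.4% higher without overlap. The median there was -1.63 over the 32 genes and -0.03 over all tested genes. Reads of the 32 genes made up 0.641 to 0.649% of all reads in Sub-ASCs, 0.229 to 0.232% in Ab-ASCs and 0.303 to 0.305% in PVASCs. In bulk RNA, fewer cells of a type and less RNA per cell cannot be told apart.

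PVASCs and Ab-ASCs differed from each other in 22 of the 32 genes. Of these, 16 were higher and 6 lower in PVASCs, where 24.7% of all tested genes were called higher, 32.1% lower and 56.9% in either direction. The balance over all tested genes depended on the fit, with 4088 called higher and 5308 lower here and 4305 higher and 4149 lower when the 2 groups were fitted alone. The median log2 fold change was 0.17, against -0.06 over all tested genes. The differences were smaller than those from Sub-ASCs, with 2 of 32 genes at or past an absolute log2 fold change of 1, against 25 of 32 for PVASCs and Sub-ASCs and 25 of 32 for Ab-ASCs and Sub-ASCs. The corresponding shares of all tested genes were 15.4%, 32.2% and 37.8%. Thus 16 genes stood in the order Sub-ASC, PVASC, Ab-ASC with all 3 pairs called, 5 in the order Sub-ASC, Ab-ASC, PVASC, and 1 in the order Ab-ASC, Sub-ASC, PVASC. For the other 10 genes PVASCs and Ab-ASCs did not pass the test.

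**Figure D2:**
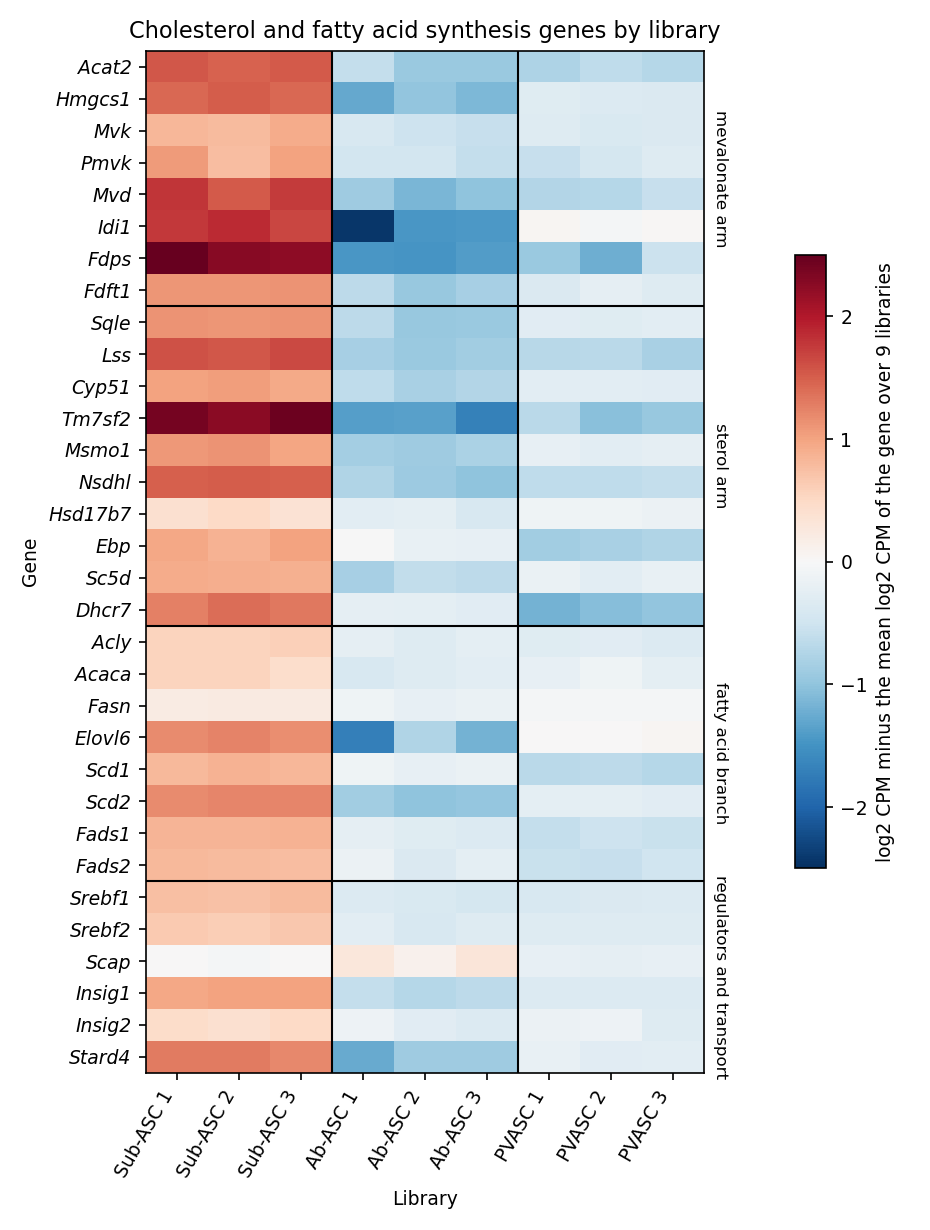
Level of each gene in each of the 9 libraries, as log2 CPM minus the mean log2 CPM of that gene over the libraries, with lines between groups and between arms. The 3 Sub-ASC columns are above the mean for every gene but Scap, and the pale Idi1, Elovl6 and Stard4 cells in PVASCs contrast with darker ones in Ab-ASCs.

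In the mevalonate arm, all 8 genes were lower in PVASCs than in Sub-ASCs, with a median log2 fold change of -1.78, and all 8 were lower in Ab-ASCs, with a median of -2.46. Hmgcs1, which joins acetoacetyl-CoA and acetyl-CoA to HMG-CoA, had the highest level per kilobase of the arm in each group. It stood at 286, 301 and 287 CPM in Sub-ASCs, 43.8, 53.1 and 48.6 in Ab-ASCs and 85.3, 83.7 and 81.9 in PVASCs. The 3 groups did not overlap, and the log2 fold change was -1.8 ± 0.07 for PVASCs against Sub-ASCs and 0.79 ± 0.07 for PVASCs against Ab-ASCs (adjusted p 1.23e-06). Acat2, the cytosolic thiolase that makes acetoacetyl-CoA, stood at 128, 121 and 125 CPM in Sub-ASCs, 28.8, 22.9 and 22.8 in Ab-ASCs and 25.5, 27.8 and 26.6 in PVASCs. Ab-ASCs and PVASCs lay below Sub-ASCs and overlapped, and their difference of 0.10 ± 0.09 did not pass the test (adjusted p 0.332). Only 60.9% of the 50-base stretches of Acat2 transcripts were found in no other gene, and among the genes that hold the rest is Acat3, which had 9.001 to 11.1 CPM in Sub-ASCs and 0.490 to 0.780 CPM elsewhere.

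The kinases and the decarboxylase that follow mevalonate were lower by varying amounts. Mvk, mevalonate kinase, had 56.3, 54.99 and 60.7 CPM in Sub-ASCs, 24.00, 22.1 and 21.3 in Ab-ASCs and 25.4, 24.5 and 24.8 in PVASCs. Pmvk, phosphomevalonate kinase, fell from 30.4, 24.8 and 28.9 CPM in Sub-ASCs to 9.72, 10.6 and 11.6 in PVASCs and lay at 10.5, 10.4 and 9.498 in Ab-ASCs. Neither kinase was called between PVASCs and Ab-ASCs (adjusted p 0.0805 and 0.593). Mvd, the diphosphomevalonate decarboxylase, fell further, from 88.96, 75.5 and 87.2 CPM in Sub-ASCs to 15.5, 15.7 and 17.4 in PVASCs and 14.01, 11.8 and 12.8 in Ab-ASCs. Its log2 fold change was -2.37 ± 0.09 against Sub-ASCs and 0.34 ± 0.09 against Ab-ASCs, the latter with adjusted p 0.00873.

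Idi1, the isomerase that makes dimethylallyl diphosphate, showed the widest gap between PVASCs and Ab-ASCs of the 32 genes. It had 80.1, 86.2 and 74.6 CPM in Sub-ASCs, 4.35, 8.58 and 8.65 in Ab-ASCs and 24.5, 22.8 and 24.1 in PVASCs. PVASCs lay between the other groups, -1.75 ± 0.14 below Sub-ASCs and 1.71 ± 0.17 above Ab-ASCs on the log2 scale (adjusted p 4.73e-06). Ab-ASC replicate 1 was the lowest library, and without it the difference from Ab-ASCs was 1.46. Of the 50-base stretches of Idi1, 74.7% were found in no other gene.

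Fdps, farnesyl diphosphate synthase, had the lowest level per kilobase in each group of the genes ranked on that scale (all but Fads1 and Fads2), with 17.2, 14.8 and 14.5 CPM in Sub-ASCs, 1.13, 1.11 and 1.16 in Ab-ASCs and 1.62, 1.32 and 2.13 in PVASCs. Its log2 fold change from Sub-ASCs was -3.19 ± 0.15 in PVASCs and -3.77 ± 0.17 in Ab-ASCs. Its counts are uncertain, because 26.7% of its exonic bases lie under exons of Gm43738 on the same strand, where counting can drop or split reads. The difference of 0.58 ± 0.22 between PVASCs and Ab-ASCs (adjusted p 0.0378) rested on 21 to 67 reads per library and did not pass the test when any Ab-ASC replicate or PVASC replicate 1 or 3 was left out (adjusted p 0.0586 to 0.147). Fdft1, squalene synthase, closed the arm at 158, 156 and 159.8 CPM in Sub-ASCs, 46.2, 38.1 and 41.3 in Ab-ASCs and 57.1, 62.3 and 58.7 in PVASCs. It was called in all 3 pairs, with 0.51 ± 0.07 for PVASCs against Ab-ASCs. On the opposite strand 18.3% of its exonic bases are shared with Ctsb, which had 134055 to 154368 reads in Sub-ASCs and 26834 to 38239 in the other libraries. The strandedness of the libraries is not given in the sources used here, and the part of Ctsb reads in Fdft1 was not tested.

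In the sterol arm, all 10 genes were lower in PVASCs than in Sub-ASCs, with a median log2 fold change of -1.58. All 10 were also lower in Ab-ASCs than in Sub-ASCs, with a median of -1.82. Against Sub-ASCs, 35.7% of all tested genes were called lower in PVASCs and 38.3% in Ab-ASCs. Sqle, squalene monooxygenase, which introduces the first oxygen, had 161, 159 and 159.9 CPM in Sub-ASCs, 46.7, 38.3 and 38.8 in Ab-ASCs and 60.4, 59.5 and 61.4 in PVASCs. Lss, which closes the rings to lanosterol, fell more, from 129, 127 and 135 CPM in Sub-ASCs to 26.8, 27.1 and 24.6 in PVASCs and 24.4, 22.8 and 23.6 in Ab-ASCs. The fall in PVASCs was -2.32 ± 0.06 for Lss and -1.40 ± 0.07 for Sqle on the log2 scale. PVASCs exceeded Ab-ASCs in Sqle (0.55 ± 0.07, adjusted p 4.71e-05), while Lss missed the threshold (adjusted p 0.0622).

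Removal of the lanosterol methyl groups is shared by Cyp51, Tm7sf2, Msmo1, Nsdhl and Hsd17b7. Cyp51, the lanosterol demethylase, had the highest level per kilobase of the arm in each group and stood at 215, 223 and 208 CPM in Sub-ASCs, 69.7, 61.1 and 64.6 in Ab-ASCs and 89.6, 89.5 and 88.3 in PVASCs. Msmo1, the methylsterol monooxygenase, had 185, 190.5 and 173 CPM in Sub-ASCs, 48.6, 47.2 and 50.5 in Ab-ASCs and 75.3, 72.5 and 74.8 in PVASCs. Both kept the order Sub-ASC, PVASC, Ab-ASC without overlap, with 0.45 ± 0.06 and 0.61 ± 0.06 for PVASCs against Ab-ASCs. Nsdhl, the next dehydrogenase, had 130.2, 132 and 129.9 CPM in Sub-ASCs, 27.6, 24.8 and 23.1 in Ab-ASCs and 29.96, 29.96 and 30.8 in PVASCs.

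The extremes of the arm were a pair of reductases. Tm7sf2, a sterol C14 reductase, fell most among the 32 genes in PVASCs, from 36.6, 32.98 and 37.8 CPM in Sub-ASCs to 4.34, 3.36 and 3.59, and lay at 2.68, 2.71 and 2.14 in Ab-ASCs. Against Sub-ASCs its log2 fold change was -3.24 ± 0.11 in PVASCs and -3.83 ± 0.12 in Ab-ASCs, and 12.1% of its exonic bases are shared with Vps51 on the same strand. Hsd17b7, the ketosteroid reductase, fell least in the branch, from 92.6, 99.2 and 90.5 CPM in Sub-ASCs to 65.5, 65.6 and 62.98 in PVASCs and 58.1, 59.2 and 53.3 in Ab-ASCs. Its log2 fold change was -0.54 ± 0.06 in PVASCs and -0.73 ± 0.06 in Ab-ASCs. The difference of 0.19 ± 0.06 between PVASCs and Ab-ASCs (adjusted p 0.0212) did not pass without Ab-ASC replicate 3 (0.112), PVASC replicate 1 (0.0735) or PVASC replicate 2 (0.0675).

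The last steps of the arm did not move alike between PVASCs and Ab-ASCs. Sc5d, the lathosterol oxidase, had 138, 135 and 133 CPM in Sub-ASCs, 40.6, 46.9 and 45.6 in Ab-ASCs and 64.04, 59.96 and 63.5 in PVASCs, and was higher in PVASCs by 0.49 ± 0.06. Ebp, the sterol isomerase that acts just before it, had 60.5, 56.6 and 62.2 CPM in Sub-ASCs, 30.7, 27.4 and 26.98 in Ab-ASCs and 17.00, 17.8 and 18.4 in PVASCs. Dhcr7, which turns 7-dehydrocholesterol into cholesterol, had 53.6, 58.6 and 56.02 CPM in Sub-ASCs, 19.2, 18.8 and 18.2 in Ab-ASCs and 9.84, 10.7 and 11.3 in PVASCs. Ebp and Dhcr7 were thus lowest in PVASCs without overlap, at -0.68 ± 0.07 (adjusted p 8.89e-06) and -0.82 ± 0.07 (adjusted p 2.09e-06) against Ab-ASCs, and were the 2 genes of the 18 in the sterol branch that were lower in PVASCs than in Ab-ASCs. Of the rest, 12 were higher in PVASCs and 4 (Acat2, Mvk, Pmvk and Lss) did not pass the test, where 24.7% of all tested genes were called higher and 32.1% lower. Without Ab-ASC replicate 1, Acat2, Mvk and Lss also passed, higher in PVASCs by 0.22, 0.20 and 0.17 on the log2 scale (adjusted p 0.00614, 0.0228 and 0.0338), and Lss passed without PVASC replicate 3 (0.19, adjusted p 0.0406). Mvk and Lss also passed with RLE size factors, with at least 10 reads required in every library, with the 2 groups fitted alone and in limma voom, where Acat2 passed as well, and Lss passed in DESeq2.

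**Figure D3:**
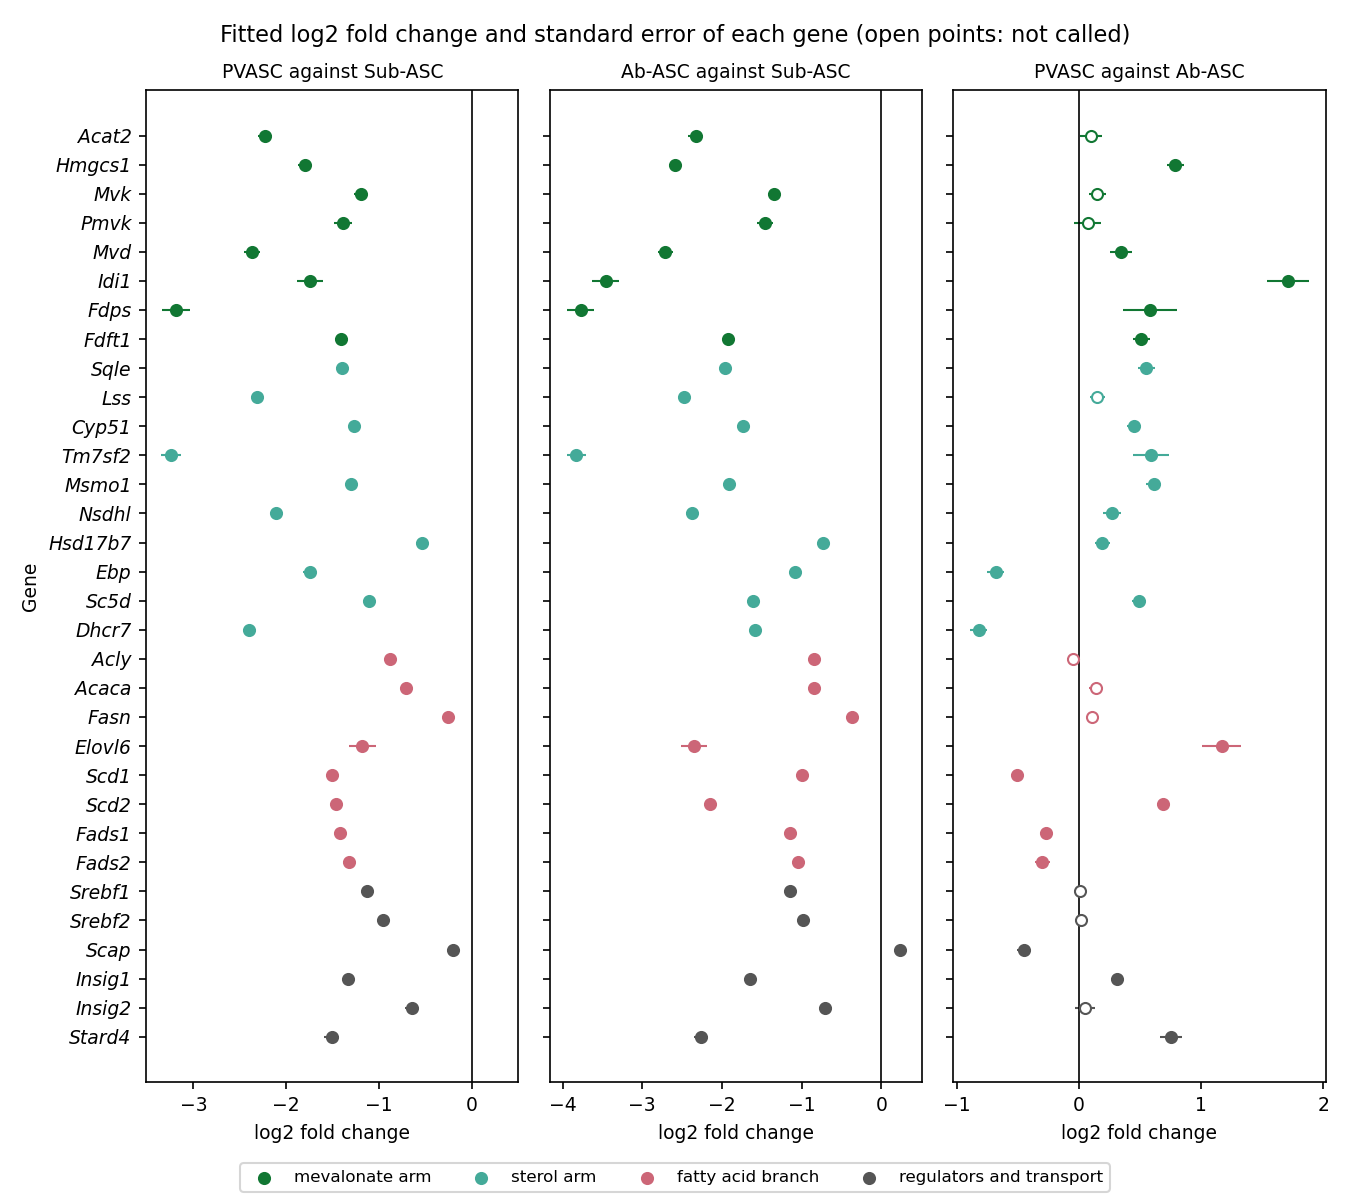
Fitted log2 fold change (points) and standard error (bars) of each of the 32 genes in each pair of groups, coloured by arm, with open points for genes that did not pass the test. Every point lies below 0 for PVASCs against Sub-ASCs, every point but Scap lies below 0 for Ab-ASCs against Sub-ASCs, and PVASCs against Ab-ASCs span -0.82 (Dhcr7) to 1.71 (Idi1).

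The fatty acid branch was lower in both groups than in Sub-ASCs for all 8 genes. The median log2 fold change was -1.25 in PVASCs and -1.02 in Ab-ASCs, where 35.7% and 38.3% of all tested genes were called lower. The enzymes that lead to palmitate fell least. Fasn, fatty acid synthase, had 400.4, 406 and 407 CPM in Sub-ASCs, 323, 302 and 310.1 in Ab-ASCs and 336, 336 and 338 in PVASCs. Its log2 fold change was -0.26 ± 0.04 (adjusted p 1.81e-04) in PVASCs, the smallest of the branch. Acly, ATP citrate lyase, which supplies acetyl-CoA to both branches, had 523, 521 and 535 CPM in Sub-ASCs, 303, 282 and 300.0 in Ab-ASCs and 287, 289 and 281 in PVASCs. Acaca, acetyl-CoA carboxylase, had 113, 113 and 104 CPM in Sub-ASCs, 58.4, 61.6 and 63.7 in Ab-ASCs and 66.4, 70.9 and 64.5 in PVASCs, and 69.6% of its 50-base stretches were found in no other gene.

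With all 9 libraries in 1 TMM-scaled edgeR fit, none of these 3 genes passed the test between PVASCs and Ab-ASCs. The log2 fold changes were -0.05 ± 0.05 for Acly, 0.14 ± 0.06 for Acaca and 0.11 ± 0.04 for Fasn, with adjusted p 0.404, 0.0807 and 0.0520. Fasn passed without Ab-ASC replicate 1 (log2 fold change 0.13, adjusted p 0.00851) and in DESeq2 (0.13, adjusted p 0.00474). Acaca and Fasn both passed in edgeR with RLE size factors (adjusted p 0.0486 and 0.0220), with at least 10 reads required in every library (0.0262 and 0.00697) and with the 2 groups fitted alone (0.0247 and 0.00483). In limma voom Fasn (0.12, adjusted p 2.41e-04) and Acly (-0.07, adjusted p 0.0314) passed. The sign of the Acly value turned to 0.03 when the 2 groups were fitted alone.

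The elongase and the desaturases fell further and split between PVASCs and Ab-ASCs. Elovl6, which extends palmitate to stearate, had 105, 109.7 and 105 CPM in Sub-ASCs, 14.2, 27.6 and 20.5 in Ab-ASCs and 46.5, 46.9 and 47.9 in PVASCs. PVASCs exceeded Ab-ASCs by 1.17 ± 0.16 (adjusted p 6.29e-05), and by 0.97 without Ab-ASC replicate 1, the lowest library. Fads1 and Fads2, the desaturases of polyunsaturated fatty acids, lie close together on chromosome 19 and showed the opposite order. Fads1 had 317, 318 and 323 CPM in Sub-ASCs, 151, 142 and 138 in Ab-ASCs and 116, 123 and 119 in PVASCs. Fads2 had 111.6, 109.8 and 109.5 CPM in Sub-ASCs, 57.8, 49.9 and 53.8 in Ab-ASCs and 43.4, 42.98 and 44.9 in PVASCs. They were lower in PVASCs than in Ab-ASCs by -0.27 ± 0.05 and -0.30 ± 0.06 on the log2 scale (adjusted p 7.27e-04 and 0.00150).

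Scd1 and Scd2, the stearoyl-CoA desaturases that make monounsaturated fatty acids, also went opposite ways although they are neighbours on chromosome 19, at 44394451 to 44407709 on the minus strand and 44293676 to 44306864 on the plus strand in the authors' table. Scd2 had the most reads of the 32 genes in every library, with 1517, 1564 and 1568 CPM in Sub-ASCs, 368, 334 and 345 in Ab-ASCs and 567, 566 and 552 in PVASCs. Scd1 had 528, 549 and 537 CPM in Sub-ASCs, 279, 259.6 and 267 in Ab-ASCs and 189, 192 and 184 in PVASCs. Against Ab-ASCs, PVASCs had more Scd2 (0.69 ± 0.05, adjusted p 1.75e-07) and less Scd1 (-0.51 ± 0.05, adjusted p 2.52e-06), with no overlap in either. The ratio of Scd2 to Scd1 reads was 2.85 to 2.92 in Sub-ASCs, 1.29 to 1.32 in Ab-ASCs and 2.94 to 3.004 in PVASCs. The genes are alike in sequence, but 95.4% of the 50-base stretches of Scd1 and 96.0% of those of Scd2 were found in no other gene. Of the 8 fatty acid genes, 2 (Elovl6 and Scd2) were higher and 3 (Scd1, Fads1 and Fads2) lower in PVASCs than in Ab-ASCs, where 24.7% of all tested genes were called higher and 32.1% lower. With RLE size factors, at least 10 reads in every library or the 2 groups fitted alone, Acaca and Fasn joined the higher genes, which made 4 higher and 3 lower.

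Per kilobase of the gene length in the authors' table, Scd2 also stood highest in each group of the genes ranked, at a mean of 284 CPM per kilobase in Sub-ASCs, 64.0 in Ab-ASCs and 103 in PVASCs. The highest sterol gene on that scale in Sub-ASCs was Hmgcs1 at 63.4 CPM per kilobase, against 10.6 in Ab-ASCs and 18.2 in PVASCs. Lengths listed for Fads1 and Fads2, 3456 and 1508 bases, were shorter than their exons in GENCODE M21, 4812 and 3295 bases, so their levels per kilobase were not ranked.

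Summed over its 18 genes, the sterol branch stood at 2039 ± 14.7 CPM in Sub-ASCs, 524 ± 15.1 in Ab-ASCs and 686 ± 1.43 in PVASCs (SD, n = 3). This was 33.7% of the Sub-ASC sum in PVASCs and 25.7% in Ab-ASCs. The 8 fatty acid genes summed to 3664 ± 43.4 CPM in Sub-ASCs, 1504 ± 47.8 in Ab-ASCs and 1650 ± 17.7 in PVASCs (SD, n = 3), so that PVASCs held 45.0% and Ab-ASCs 41.0% of the Sub-ASC sum. Against Ab-ASCs, PVASCs held 131% of the sterol sum and 110% of the fatty acid sum. The ratio of the sterol to the fatty acid sum was 0.548 to 0.566 in the Sub-ASC libraries, 0.342 to 0.354 in the Ab-ASC libraries and 0.411 to 0.421 in the PVASC libraries, with no overlap.

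A single gene weighed on this ratio, as Scd2 made up 42.0 to 42.5% of the fatty acid sum in Sub-ASCs, 22.9 to 23.7% in Ab-ASCs and 33.9 to 34.3% in PVASCs. Without Scd2 the ratio was 0.954 to 0.976 in Sub-ASCs, 0.445 to 0.459 in Ab-ASCs and 0.622 to 0.637 in PVASCs, in the same order. On the scale of fitted changes, the median of the sterol branch minus that of the fatty acid branch was -0.50 for PVASCs against Sub-ASCs, -0.92 for Ab-ASCs against Sub-ASCs and 0.36 for PVASCs against Ab-ASCs. The first 2 of these share the Sub-ASC libraries. Without the members that overlap another gene on the same strand or have under 90% of 50-base stretches to themselves, which left 12 sterol and 6 fatty acid genes, the differences were -0.14, -0.65 and 0.39. The gap between branches in PVASCs against Sub-ASCs was thus smaller among the genes kept. The rule also dropped Scd2, which shares 1.1% of its exonic bases with Mir5114, a gene with 0 reads in every library. No p was computed for the branches, whose members were chosen with results known.

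**Figure D4:**
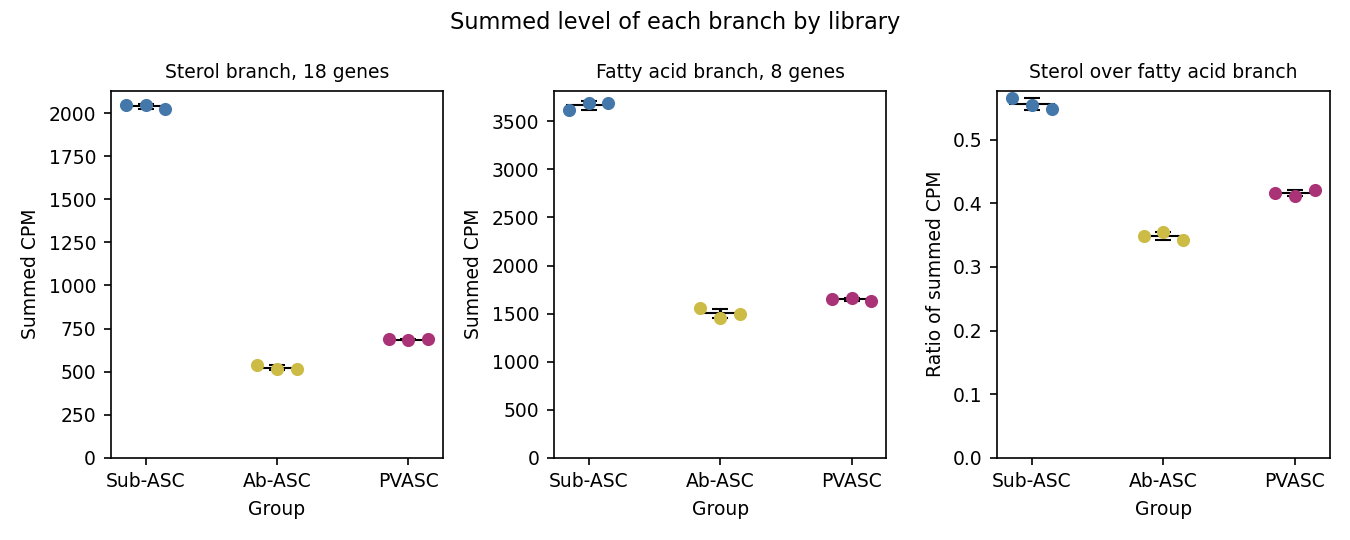
Summed CPM of the 18 sterol genes (left) and the 8 fatty acid genes (middle) and their ratio (right) in each library (points), with the mean and SD of each group of 3 (bar and whiskers), from an axis at 0. Sub-ASCs lie highest in all panels, and the ratio is 0.342 to 0.354 in Ab-ASCs and 0.411 to 0.421 in PVASCs.

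The regulators and the sterol carrier were lower in PVASCs than in Sub-ASCs for all 6 genes, with a median log2 fold change of -1.05. In Ab-ASCs against Sub-ASCs, 5 were lower and 1, Scap, was higher, with a median of -1.06. Of all tested genes, 35.7% were called lower and 34.7% higher in PVASCs, and 38.3% lower and 37.0% higher in Ab-ASCs. Srebf2 had 297, 289 and 301 CPM in Sub-ASCs, 157, 142 and 150.3 in Ab-ASCs and 152, 151 and 152 in PVASCs. Srebf1 had 184, 183 and 191 CPM in Sub-ASCs, 87.2, 84.8 and 80.5 in Ab-ASCs and 83.1, 84.97 and 86.6 in PVASCs. The libraries of PVASCs and Ab-ASCs overlapped for both. The log2 fold changes were 0.02 ± 0.05 for Srebf2 and 0.01 ± 0.05 for Srebf1 (edgeR, adjusted p 0.799 and 0.861). In that pair, 12 of the 18 sterol genes were called higher and 2 lower in PVASCs. Of all tested genes, 24.7% were called higher and 32.1% lower there. SREBP cleavage was not measured, and the link between these levels and the sterol genes was not tested. Against Sub-ASCs, Srebf2 fell by 0.96 and Srebf1 by 1.13 on the log2 scale in PVASCs.

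The proteins that hold or release SREBPs differed among themselves. Insig1, itself a target of SREBPs, had 157, 161 and 161 CPM in Sub-ASCs, 52.6, 48.9 and 51.1 in Ab-ASCs and 62.9, 63.01 and 63.1 in PVASCs, the order of most sterol genes, with 0.31 ± 0.05 for PVASCs against Ab-ASCs (adjusted p 2.83e-04). Insig2 had 49.7, 47.3 and 50.4 CPM in Sub-ASCs, 32.96, 29.6 and 28.3 in Ab-ASCs and 32.2, 32.8 and 28.6 in PVASCs, and was not called between the latter (adjusted p 0.630), although limma voom called it (0.13, adjusted p 0.0283). Scap, the SREBP escort, was the exception of the whole set, highest in Ab-ASCs at 117, 102 and 117 CPM, with 95.5, 92.6 and 95.7 in Sub-ASCs and 82.2, 81.04 and 82.2 in PVASCs. The groups did not overlap, and the log2 fold change was 0.24 ± 0.06 for Ab-ASCs against Sub-ASCs (adjusted p 0.00260) and -0.45 ± 0.06 for PVASCs against Ab-ASCs (adjusted p 5.09e-05). Stard4, a cytosolic sterol carrier and SREBP target, had 105, 106 and 98.2 CPM in Sub-ASCs, 18.04, 23.1 and 23.1 in Ab-ASCs and 37.6, 35.4 and 35.6 in PVASCs, and was higher in PVASCs than in Ab-ASCs by 0.75 ± 0.09.

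Among the genes of SREBP processing, directions were mixed. Of 5 such genes, 2 were higher, 2 lower and 1 not called in PVASCs against Sub-ASCs, with a median of 0.05. This was near the shares of all tested genes, of which 34.7% were called higher and 35.7% lower. Mbtps1, the site-1 protease, had 222, 214 and 224 CPM in Sub-ASCs, 179.6, 161 and 169.9 in Ab-ASCs and 179.7, 177 and 174 in PVASCs.

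Genes of LXR signalling and sterol efflux were also mostly lower outside Sub-ASCs. In PVASCs against Sub-ASCs, 6 of 7 were lower and 1 higher, with a median log2 fold change of -2.27, where 35.7% of all tested genes were called lower. In Ab-ASCs the counts against Sub-ASCs were also 6 lower and 1 higher, with a median of -3.12, where 38.3% of all tested genes were called lower. Apoe, the lipoprotein ligand, had 677, 542 and 668 CPM in Sub-ASCs, 13.1, 12.5 and 11.8 in Ab-ASCs and 43.3, 38.1 and 44.2 in PVASCs. Abca1, which exports cholesterol to apolipoproteins, had 411, 439 and 414 CPM in Sub-ASCs, 17.3, 24.2 and 20.9 in Ab-ASCs and 45.6, 44.8 and 44.9 in PVASCs. Between PVASCs and Ab-ASCs the log2 fold change was 1.75 ± 0.10 for Apoe, 1.11 ± 0.09 for Abca1, 0.85 ± 0.16 for Abcg1 and 1.8 ± 0.10 for Mylip, an LXR target that degrades lipoprotein receptors. All 4 were higher in PVASCs, where 2 of the 7 (Nr1h2 and Ch25h) were lower and Nr1h3 was not called, and 24.7% of all tested genes were called higher and 32.1% lower.

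Ch25h, which makes the oxysterol 25-hydroxycholesterol, ran opposite to the sterol genes. It had 26.3, 31.1 and 29.1 CPM in Sub-ASCs, 138, 129 and 122 in Ab-ASCs and 41.1, 41.1 and 41.2 in PVASCs, and the groups did not overlap. Its log2 fold change was 2.17 ± 0.07 for Ab-ASCs against Sub-ASCs and -1.66 ± 0.07 for PVASCs against Ab-ASCs (adjusted p 2.05e-09). Nr1h3, encoding LXR alpha, had 15.4, 12.8 and 14.3 CPM in Sub-ASCs, 3.65, 1.82 and 2.72 in Ab-ASCs and 2.57, 2.61 and 2.42 in PVASCs.

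**Figure D5:**
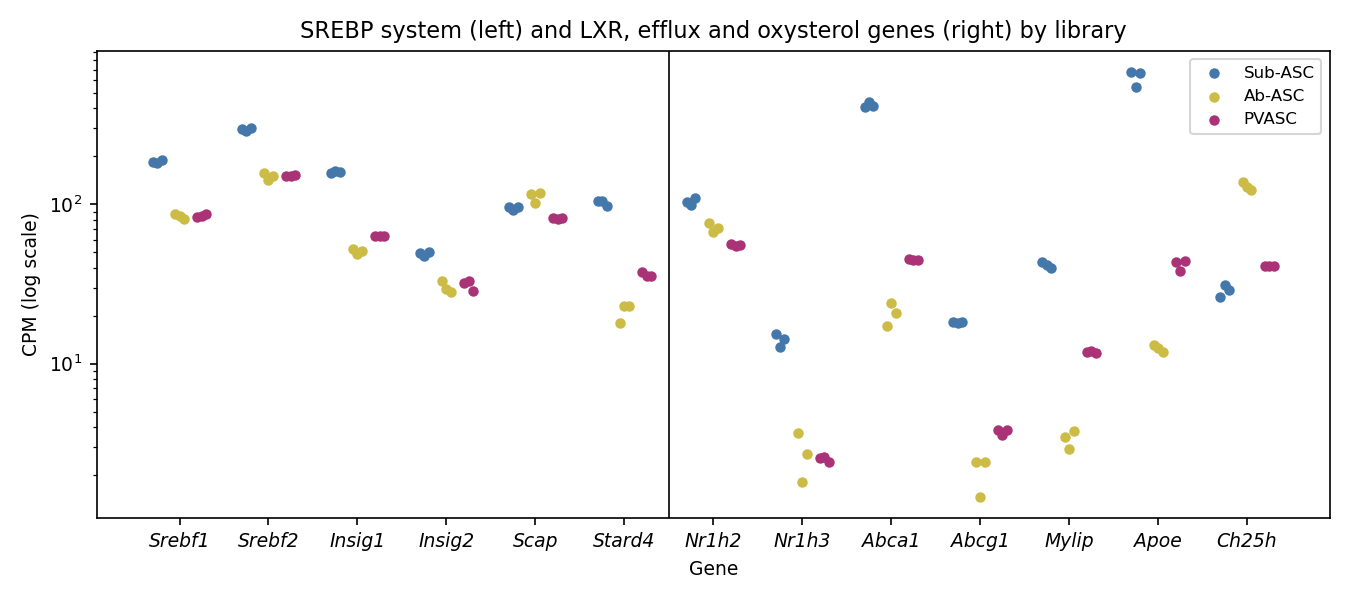
CPM (log axis) of the SREBP system and Stard4 (left of the line) and of LXR, efflux and oxysterol genes (right) in each library (points), coloured by group. Sub-ASCs lie highest for every gene but Scap and Ch25h, both highest in Ab-ASCs, and PVASCs lie above Ab-ASCs for Apoe, Abca1, Abcg1 and Mylip.

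Among 8 other genes of sterol and isoprenoid synthesis, 6 were lower, 1 higher and 1 not called in PVASCs against Sub-ASCs, with a median of -0.31, where 35.7% of all tested genes were called lower and 34.7% higher. In Ab-ASCs against Sub-ASCs, 4 were lower, 1 higher and 3 not called, with a median of -0.23, where 38.3% of all tested genes were called lower and 37.0% higher. Erg28, a scaffold of the demethylation enzymes, fell like the sterol branch, at 72.6, 70.04 and 72.5 CPM in Sub-ASCs, 32.1, 27.4 and 26.6 in Ab-ASCs and 26.96, 26.7 and 27.8 in PVASCs. Pdss1, which makes the ubiquinone side chain, was the one that rose, with 3.56, 3.69 and 2.52 CPM in Sub-ASCs, 10.04, 10.8 and 11.8 in Ab-ASCs and 9.66, 8.74 and 9.32 in PVASCs (1.51 ± 0.14 for PVASCs against Sub-ASCs, adjusted p 6.13e-07). Ggps1, which makes the geranylgeranyl chain for prenylation, was lower in PVASCs by -0.32 ± 0.10.

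Of 19 other genes of fatty acid synthesis and activation, 17 had enough reads, and 12 of these were lower, 1 higher and 4 not called in PVASCs against Sub-ASCs, where 35.7% of all tested genes were called lower and 34.7% higher. Mlxipl, encoding the glucose-responsive factor ChREBP, had 16.5, 18.3 and 15.8 CPM in Sub-ASCs and at most 0.107 CPM in any other library, at or below the floor of 3 reads. Acss2, which makes acetyl-CoA from acetate, had 44.7, 45.7 and 46.8 CPM in Sub-ASCs, 11.2, 12.7 and 9.77 in Ab-ASCs and 6.27, 6.95 and 6.23 in PVASCs. Gpam, which starts glycerolipid assembly, had 71.01, 80.02 and 73.4 CPM in Sub-ASCs, 33.3, 34.3 and 36.3 in Ab-ASCs and 21.2, 21.1 and 20.7 in PVASCs. Acss2 and Gpam shared with Scd1, Fads1 and Fads2 the lowest level in PVASCs. Me1, the malic enzyme that supplies NADPH, was the one that rose, at 107, 112.0 and 108 CPM in Sub-ASCs, 132, 122 and 121 in Ab-ASCs and 133, 134 and 131 in PVASCs.

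Other gene groups moved with the contrast to Sub-ASCs, where 35.7% of all tested genes were called lower and 34.7% higher in PVASCs and 38.3% lower and 37.0% higher in Ab-ASCs. Adipocyte markers summed to 3991 to 4281 CPM in Sub-ASCs, 404 to 541 in Ab-ASCs and 206 to 213 in PVASCs, and 7 of 7 tested were lower in both groups. Lpl, lipoprotein lipase, supplied 3738, 3997 and 3714 CPM of the sum in Sub-ASCs, Plin1 stood at 17.6, 19.1 and 19.9 CPM there and at most 0.339 CPM elsewhere, and Lep was at 0. Proliferation genes ran the other way, at 148 to 157 CPM in Sub-ASCs, 1341 to 1436 in Ab-ASCs and 1191 to 1195 in PVASCs, with 15 of 15 higher in both groups. Interferon response genes summed to 2444 to 2530 CPM in Sub-ASCs, 123 to 139 in Ab-ASCs and 115 to 117 in PVASCs, with 10 of 10 lower in both. The sum of the endothelial markers was highest in PVASCs, at 713 to 723 CPM against 167 to 181 in Sub-ASCs and 61.0 to 63.0 in Ab-ASCs. Of these 5 markers, 4 were higher and 1, Tek, was lower in PVASCs than in Sub-ASCs, with a mean of 14.8 against 46.0 CPM. The sum of the mesothelial markers was highest in Ab-ASCs, at 123 to 132 CPM against 3.13 to 3.26 in Sub-ASCs and 49.8 to 51.6 in PVASCs, with Muc16 at most 0.178 CPM. Against Ab-ASCs, where 32.1% of all tested genes were called lower and 24.7% higher in PVASCs, 7 of the 9 tested were lower and 2 were higher, Krt19 with a mean of 14.7 against 4.39 CPM and Gpm6a with 1.88 against 0.600 CPM. Macrophage markers summed to 277 to 419 CPM over all libraries, most of it Lyz2, which was higher outside Sub-ASCs, at means of 271 CPM in Ab-ASCs and 249 in PVASCs against 163 in Sub-ASCs. Of the 8 macrophage markers, 6 were lower and 2 higher than in Sub-ASCs in both groups, and Ptprc (CD45), the general leukocyte marker, stood at means of 8.94 CPM in Sub-ASCs, 1.41 in Ab-ASCs and 2.81 in PVASCs. The part of these groups in the results above was not tested.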

How the data were processed

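RNA of cultured mouse ASCs was sequenced in 9 libraries, 3 per depot, and the authors deposited raw read counts per gene, without normalization or pooling. The submitters' processing notes name CASAVA 1.8, Bowtie 0.12.2, featureCounts 1.5.0-p3, mm8 and mm10, with no role given, and the strandedness is not given in the sources used here. Positions in the table matched GENCODE M21 on GRCm38 for 53585 of 54532 genes. Counting can drop or split reads of overlapping or similar genes, so levels of genes with shared bases are uncertain. The floor of 3 reads covers counting error only.

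Samples were grouped by the tissue in their labels. Genes were filtered by filterByExpr, libraries scaled by TMM, and all 9 libraries entered 1 fit with edgeR 4.0.16 (limma 3.58.1, R 4.3.3), using the quasi-likelihood test and Benjamini-Hochberg adjustment over 16526 genes with a threshold of 0.05. The SE is the log2 fold change divided by the root of the F statistic. On simulated data with 200 changed genes the procedure was tested first. The named genes were the 32 members and lists of pathway genes and markers. Members and lists were chosen with earlier results of these data known. Same-numbered libraries of different groups had deviations that correlated by -0.0514 to 0.095, so the numbers were not used to pair them. Alternatives were DESeq2 1.42.0, RLE size factors, no filter, at least 10 reads in every library, only the groups compared, a replicate block, limma voom with sample weights, a log2 fold change of 1 or more in size, leaving out each library, leaving out Acly and Acat2, scaling by library total and the mean of log2(CPM + 1). Leaving out members with shared bases was added after seeing the data. Some pathway genes are not reported here by name.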

Additional observations from a re-analysis of the deposited data

How the results depend on the processing

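Without a required fold change, the counts of called genes against Sub-ASCs were the same in every test across genes, and leaving out each library in turn kept 18 sterol, 8 fatty acid and 6 regulatory genes called in both comparisons with Sub-ASCs. A required log2 fold change of 1 in size left 17 sterol genes, 5 fatty acid genes and 3 regulators in PVASCs against Sub-ASCs. It left 17, 5 and 3 for Ab-ASCs against Sub-ASCs, and 1, 1 and 0 for PVASCs against Ab-ASCs. The shares of all tested genes that passed were 32.2%, 37.8% and 15.4% in these pairs, in the same order. With PVASCs and Ab-ASCs fitted alone the medians were 0.47 (sterol), 0.11 (fatty acid) and 0.11 (regulators), and limma voom gave 0.10 for the regulators. Without Acly and Acat2 the fatty acid medians were -1.33 for PVASCs against Sub-ASCs and 0.11 for PVASCs against Ab-ASCs. Without members that share bases with other genes the sterol medians were -1.40 for PVASCs and -1.67 for Ab-ASCs against Sub-ASCs and 0.23 for PVASCs against Ab-ASCs, the fatty acid median was -0.16 for PVASCs against Ab-ASCs, the regulator medians were -0.96 and -0.98 against Sub-ASCs, and the branch differences were -0.14 and -0.65. The log2 ratio of the summed sterol level was -1.41 (PVASCs and Sub-ASCs), 0.62 (PVASCs and Ab-ASCs) and -2.03 (the remaining pair) when scaled by library total and -1.74, 0.31 and -2.05 as a mean of log2(CPM + 1), and -1.54 for PVASCs against Sub-ASCs without Acat2. That of the fatty acid sum was -0.99, 0.36 and -1.35 by library total, in the same order, -1.09 and -1.21 against Sub-ASCs as a mean of logs, and -1.20, 0.17 and -1.38 without Acly. The cause of these shifts, beyond the genes or libraries removed, was not tested.

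Between PVASCs and Ab-ASCs, leaving out each library gave 12 to 16 called sterol genes, 5 to 6 fatty acid genes and 3 regulators, and sterol medians of 0.33 to 0.42. In Ab-ASCs against Sub-ASCs the sterol median ranged from -2.02 (without Ab-ASC replicate 1) to -1.89. Values near 0 between PVASCs and Ab-ASCs changed sign for Acly with the 2 groups fitted alone (0.03), for Srebf1 without Ab-ASC replicate 3 (-0.02) or PVASC replicate 3 (0.00), for Srebf2 without Ab-ASC replicate 2 (-0.03) and for Insig2 without Ab-ASC replicate 3 (0.00). Over all libraries left out they ranged from -0.02 to 0.04 for Srebf1, from -0.03 to 0.05 for Srebf2 and from 0.00 to 0.11 for Insig2. None of these passed the test with a library left out or with the 2 groups fitted alone, but limma voom called Acly (-0.07, adjusted p 0.0314) and Insig2 (0.13, adjusted p 0.0283). Called sterol genes numbered 16 with RLE size factors, at least 10 reads or the 2 groups fitted alone, 15 in DESeq2 and 17 in limma voom, and fatty acid genes 7, 6 and 7. Hsd17b7 was not called between these groups without a low-count filter (adjusted p 0.0565). The replicate block, in which the libraries share only a number, gave 14 called sterol genes and a median of 0.40 in PVASCs against Ab-ASCs and changed no call of a member. Depth limited Fdps most, with 21 to 67 reads per library outside Sub-ASCs.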

Other observations

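Of 6 genes that take up, release and store sterols, 5 were lower and 1, Soat1, was higher in PVASCs against Sub-ASCs, with a median log2 fold change of -0.73, where 35.7% of all tested genes were called lower and 34.7% higher. The counts were the same in Ab-ASCs against Sub-ASCs, with a median of -0.57, where 38.3% were called lower and 37.0% higher. Soat1, which esterifies cholesterol for storage, was highest in Ab-ASCs, at 386, 364 and 363 CPM, against 127, 135 and 130.0 in Sub-ASCs and 146, 150.3 and 141 in PVASCs, with a log2 fold change of 1.5 ± 0.05 for Ab-ASCs against Sub-ASCs and -1.35 ± 0.05 for PVASCs against Ab-ASCs (edgeR, adjusted p 8.54e-10). This is the order of Ch25h, and the groups did not overlap between Ab-ASCs and either other group. Npc2, which hands cholesterol out of lysosomes, was lowest in PVASCs, at 447, 468 and 461 CPM, against 1311, 1173 and 1340.1 in Sub-ASCs and 1229, 991 and 1049 in Ab-ASCs. Its partner Npc1 was also lowest there, at 53.6, 61.3 and 59.1 CPM, against 101, 102 and 107 in Sub-ASCs and 73.3, 72.1 and 80.3 in Ab-ASCs. Scarb1, the receptor for high-density lipoprotein, kept the order of the sterol branch, with 89.9, 87.3 and 97.05 CPM in Sub-ASCs, 29.6, 29.5 and 30.5 in Ab-ASCs and 44.1, 43.8 and 39.8 in PVASCs (0.51 ± 0.07 for PVASCs against Ab-ASCs, edgeR adjusted p 4.46e-05).

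The acyl-CoA synthetases, which activate fatty acids, differed by member. Acsl1 had 47.4, 44.3 and 46.8 CPM in Sub-ASCs, 13.9, 12.05 and 11.6 in Ab-ASCs and 14.5, 14.7 and 13.8 in PVASCs, and Acsl3 had 57.9, 58.1 and 51.3, 13.4, 18.4 and 17.3 and 26.6, 23.3 and 23.7 CPM in the same groups. Both were lower outside Sub-ASCs. Acsl4, which prefers arachidonate, had 158, 171 and 152 CPM in Sub-ASCs, 146, 224 and 201 in Ab-ASCs and 182, 179.6 and 178 in PVASCs and passed the test in none of the 3 pairs.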
